A study of Mus musculus with 12 samples.

Results

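The peroxisome proliferator-activated receptors (PPARs), their retinoid X receptor (RXR) partners and the PGC1 coactivators were followed in the kidneys of mice given cannabidiol (CBD), a cannabinoid of the hemp plant. The group holds 7 of the 57180 genes counted: the receptors Ppara, Ppard and Pparg, the partners Rxra and Rxrb, and the coactivators Ppargc1a and Ppargc1b. The genes were chosen by name with earlier results known, and the level of Ppard against the control group was the value that led to their choice. For that reason Ppard against the control group is given as a description without a test, while the other 6 genes, and the doses against each other, were tested. All 7 passed the filter on low counts that left 17163 genes for testing.

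PPARs are nuclear receptors that bind fatty acids and their derivatives. They act on DNA as heterodimers with an RXR, and the PGC1 proteins are coactivators that raise the activity of these and other nuclear receptors. Their targets include enzymes of fatty acid oxidation, which the proximal tubule of the kidney depends on for much of its energy, and CBD has been described as a ligand of PPARγ in cell assays.

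The study asked how long-term CBD treatment changes the kidney transcriptome. All mice were male C57BL/6J, aged 60 days at the start, and received 1 intraperitoneal injection a day for 28 days. The control group (Control) received saline with 2% Tween 80 alone, and the groups 10CBD and 20CBD received 10 or 20 mg CBD/kg b.w. in that vehicle. Each group had 4 mice, with 1 library of poly(A) RNA from a kidney piece of each mouse, so the vehicle and the injections were shared by all 12.

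Libraries held 15417867 to 23532088 counts on genes. The 8 markers of the proximal tubule were counted in every library and summed to 26763 to 34498 CPM, that is, counts scaled to a common library size. Kap alone gave 16215 to 24560 CPM of this sum. Lrp2 had 1891 to 2649 CPM in Control and 1035 to 1630 CPM in 20CBD, without overlap. Slc5a2 had 197 to 236 CPM and 131 to 162 CPM in these groups, also without overlap. The ranges of the other proximal tubule markers overlapped between these groups. Over all genes tested, 2.63% were lower without overlap for 20CBD against Control. Mitochondrial genes took 3.53% to 23.4% of the counts, and this share was under 10% in 4 libraries, namely Control 2, 10CBD 1, 10CBD 3 and 20CBD 3. A list of 6 adipocyte markers summed to 6.90 to 103 CPM in Control, 0.949 to 36.5 CPM in 10CBD and 0.420 to 19.3 CPM in 20CBD, and only Cidec of this list was counted in all 12 libraries. In such bulk RNA, fewer cells of a type and less RNA per cell cannot be told apart.

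Of the 6 genes tested against Control, 0 were called at either dose. Over all genes tested, 0.0291% were called for 10CBD against Control and 0.303% for 20CBD against Control, with 0.0175% and 0.134% called as lower in treated mice. None of the 7 was called for 20CBD against 10CBD, where 0% of all genes were called. Calls were made by the quasi-likelihood test of edgeR at a Benjamini-Hochberg adjusted p under 0.1, and at an unadjusted p under 0.05 the 3 comparisons held 973, 1450 and 1083 genes, with 0 of the 6 among them. DESeq2 called 34, 167 and 13 genes, and called none of these 6 in any comparison.

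Levels between genes were compared in the control group, as CPM per kilobase of the gene's merged exons. Rxra had the highest level, with 16.6 ± 0.30 CPM per kilobase (SD, n = 4 mice here and in all group values). It was followed by Ppargc1a with 10.3 ± 1.80, Ppara with 7.73 ± 1.15, Rxrb with 6.42 ± 0.73, Ppard with 4.95 ± 0.38, and Ppargc1b with 4.41 ± 0.53 CPM per kilobase. Pparg was the lowest, with 0.226 ± 0.045 CPM per kilobase, and the mean of Rxra was 73.6 times as high. The ranges of neighbours in this order overlapped for Ppargc1a and Ppara, for Ppara and Rxrb, and for Ppard and Ppargc1b. They did not overlap for Rxra and Ppargc1a, for Rxrb and Ppard, or for Ppargc1b and Pparg. The lowest Rxrb value of 5.62 CPM per kilobase lay close to the highest Ppard value of 5.50.

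**Figure D1:**
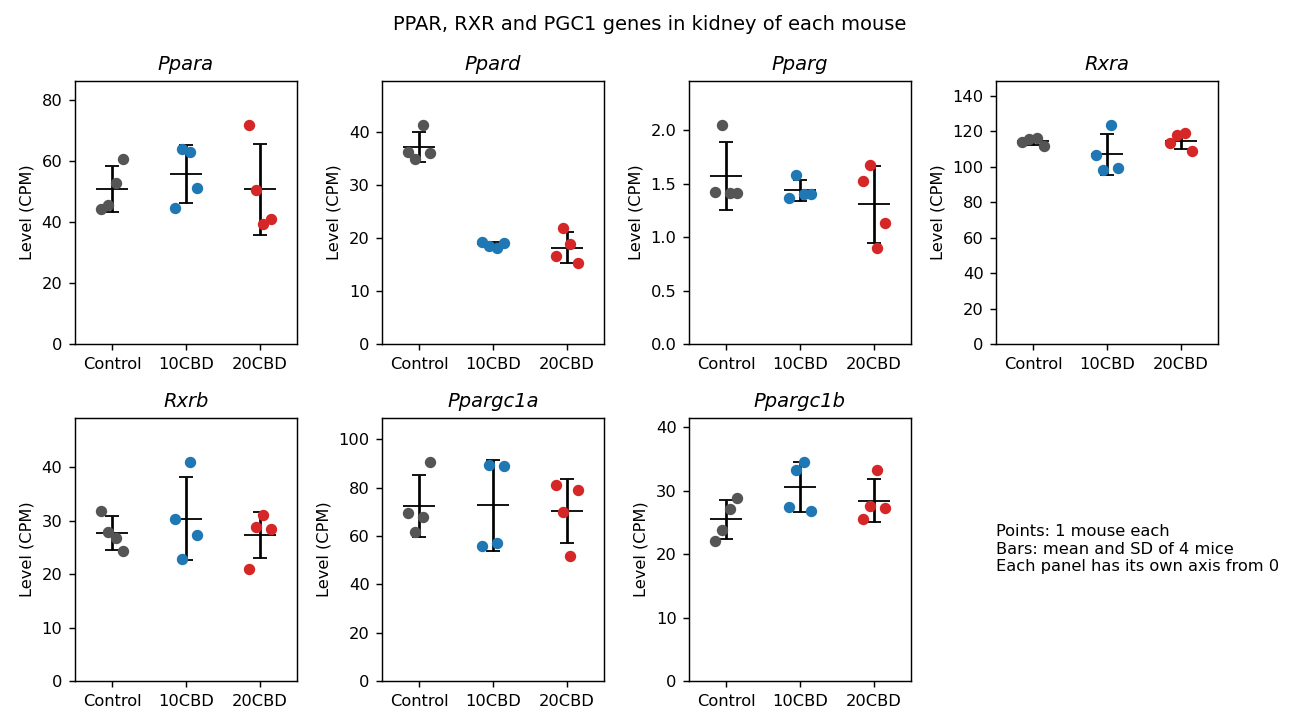
Expression in CPM of each of the 7 genes in each mouse (points), with the group mean and SD, for Control, 10CBD and 20CBD. The 4 Control points of Ppard, from 34.9 to 41.4 CPM, lie above all 8 treated points, and the groups overlap for the other 6 genes.

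Ppard encodes the most widely expressed PPAR, a regulator of fatty acid oxidation in muscle and other tissues. The gene (ENSMUSG00000002250) lies on the plus strand of chromosome 17, at 28451674 to 28520448 in GRCm39. Since Ppard is the receptor with the different level, the 250 bases before its start (chr17:28451424-28451673, plus strand, GRCm39) are shown, with each CG dinucleotide in capitals.
Ppard promoter: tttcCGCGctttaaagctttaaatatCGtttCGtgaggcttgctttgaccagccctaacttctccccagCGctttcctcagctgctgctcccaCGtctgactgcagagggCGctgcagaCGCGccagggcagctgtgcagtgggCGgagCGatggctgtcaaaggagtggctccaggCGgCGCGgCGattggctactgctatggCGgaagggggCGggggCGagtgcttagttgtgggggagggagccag
The window held 18 CG dinucleotides, where the median of 13749 promoters of the same length was 12, and its GC content was 62.0% against a median of 56.4%. Both strands of the windows of all 7 genes were searched for CACGTG (E-box), TTATGTAA (D-box), AGGTCA (the core word of nuclear receptor sites), the DR1 element (a direct repeat of AGGTCA with 1 base between, which PPAR and RXR dimers bind and which contains that word) and AGAACA (a core word of glucocorticoid receptor sites). None of these words was found in any of the 7 windows. Of all promoters searched, 7.61%, 0.567%, 11.9%, 0.0291% and 11.8% held the respective word.

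Ppard was expressed at 36.3, 34.9, 41.4 and 36.1 CPM in the 4 Control mice. In 10CBD the values were 19.4, 18.6, 18.2 and 19.1 CPM, and in 20CBD they were 16.7, 21.9, 19.0 and 15.2 CPM. The lowest Control mouse thus lay above the highest treated mouse at either dose, and the 10CBD mice lay close together. The means were 37.2 ± 2.86 CPM in Control, 18.8 ± 0.51 CPM in 10CBD and 18.2 ± 2.91 CPM in 20CBD. The log2 fold change against Control was -0.98 (SE 0.12) for 10CBD and -1.03 (SE 0.13) for 20CBD, or 0.506 and 0.490 times the Control level. These values rest on 663 to 865 counts per library in Control, 282 to 438 in 10CBD and 270 to 366 in 20CBD.

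The doses did not differ detectably in Ppard. The log2 difference of 20CBD from 10CBD was -0.048 (SE 0.13, 95% interval -0.32 to 0.22, edgeR adjusted p = 0.971), and an exact two-sided permutation test over 70 arrangements gave p = 0.629. The interval leaves room for a level in 20CBD between 0.804 and 1.16 times that in 10CBD. Without the 4 libraries of low mitochondrial share, Ppard had a log2 fold change against Control of -1.01 for 10CBD and -1.08 for 20CBD. Those libraries were from 2 of the 4 10CBD mice and from 1 mouse in each of the other groups.

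The 3 genes tested on either side of Ppard on chromosome 17 are C230013L11Rik, Zfp523, Def6, Fance, Rpl10a and Tead3. None of these 6 neighbours was called in any comparison. Against Control, their log2 fold changes ran from -0.10 (Def6, 20CBD) to 0.25 (Fance, 10CBD), and the smallest edgeR adjusted p was 0.895 (Rpl10a, 20CBD).

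Ppara, on chromosome 15 at 85618656 to 85687067 (plus strand, ENSMUSG00000022383), encodes the PPAR that drives fatty acid oxidation and ketogenesis in liver and is abundant in the proximal tubule. Its values were 44.3, 45.6, 52.8 and 60.8 CPM in Control, 44.5, 64.0, 63.2 and 51.1 CPM in 10CBD, and 71.9, 50.5, 39.5 and 41.2 CPM in 20CBD. The 20CBD group held both the highest and the lowest mouse of all 12, and all groups overlapped. Against Control, Ppara had a log2 fold change of 0.13 (SE 0.19, interval -0.27 to 0.53, edgeR adjusted p = 0.943) for 10CBD and -0.0027 (SE 0.19, interval -0.40 to 0.40, adjusted p = 0.998) for 20CBD. Part of Ppara overlaps Cdpf1 on the opposite strand, and reads on both genes would not have been counted if strand was ignored.

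Pparg, on chromosome 6 at 115337675 to 115468268 (plus strand, ENSMUSG00000000440), encodes the receptor that directs fat cell differentiation. It had 15 to 43 counts per library, the fewest of the 7 genes. Its level was 1.43, 2.05, 1.41 and 1.41 CPM in Control, 1.37, 1.58, 1.40 and 1.41 CPM in 10CBD, and 1.52, 1.68, 0.900 and 1.13 CPM in 20CBD. Control 2 had the highest level, 20CBD 3 the lowest, and the groups overlapped. For Pparg the log2 fold change was -0.13 (SE 0.26, interval -0.68 to 0.41, edgeR adjusted p = 0.959) for 10CBD and -0.27 (SE 0.26, interval -0.82 to 0.28, adjusted p = 0.846) for 20CBD. The intervals of Pparg were the widest among the 7 genes at this depth.

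The mouse with the highest Pparg level, Control 2, also had the highest adipocyte sum of 103 CPM, and 20CBD 3, with the lowest Pparg level, had the lowest adipocyte sum of 0.420 CPM. The mice between these did not follow this order, as 20CBD 2 had the second highest Pparg level with an adipocyte sum of 8.02 CPM, and Control 1 had 1.43 CPM of Pparg with a sum of 76.5 CPM. The part of fat tissue in the Pparg values was not tested.

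**Figure D2:**
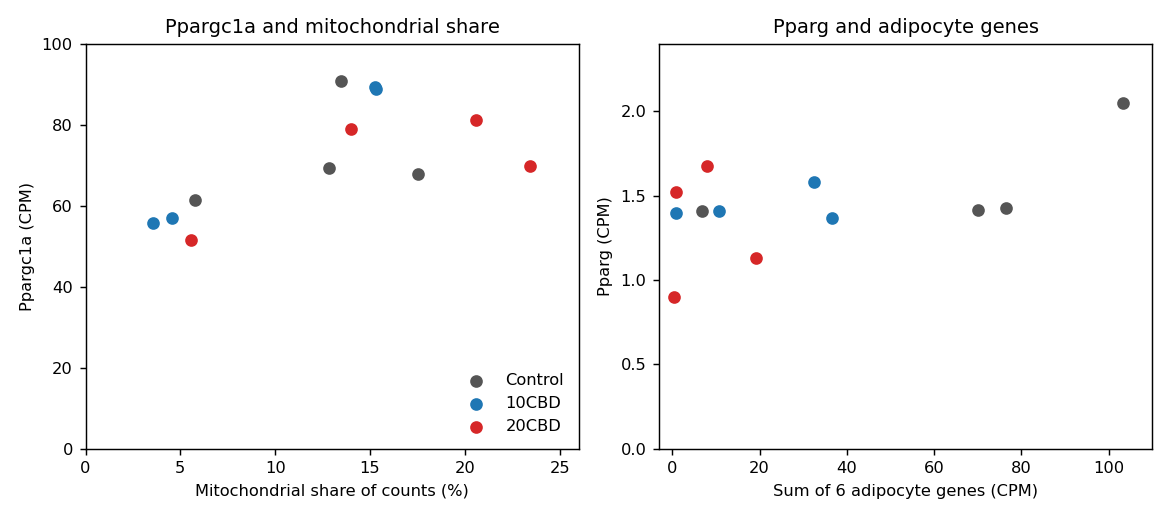
Left, Ppargc1a (CPM) against the mitochondrial share of counts (percent), and right, Pparg (CPM) against the sum of 6 adipocyte genes (CPM), with 1 point per mouse coloured by group. Control 2 stands apart in Pparg at 2.05 CPM, and the 4 mice with a mitochondrial share under 10% have the 4 lowest Ppargc1a values.

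The make-up of the PPAR group was described as the share of each receptor in the sum of the 3 levels per kilobase. In Control, Ppara held 59.7 ± 3.49%, Ppard 38.5 ± 3.30% and Pparg 1.78 ± 0.49% of the sum. The share of Ppard was 22.7 ± 3.49% in 10CBD and 24.2 ± 5.46% in 20CBD, and that of Ppara was 75.4 ± 3.65% and 74.0 ± 5.52%. Ppara was thus the most abundant PPAR in every group. The share of Ppard spanned 33.7% to 41.1% in Control, 19.8% to 27.0% in 10CBD and 16.6% to 29.2% in 20CBD. Because Ppard enters this share, the difference is part of the choice of genes and was not tested. The sum of the 3 receptors was 12.9 ± 1.27 CPM per kilobase in Control, 11.2 ± 1.39 in 10CBD and 10.3 ± 2.29 in 20CBD.

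**Figure D3:**
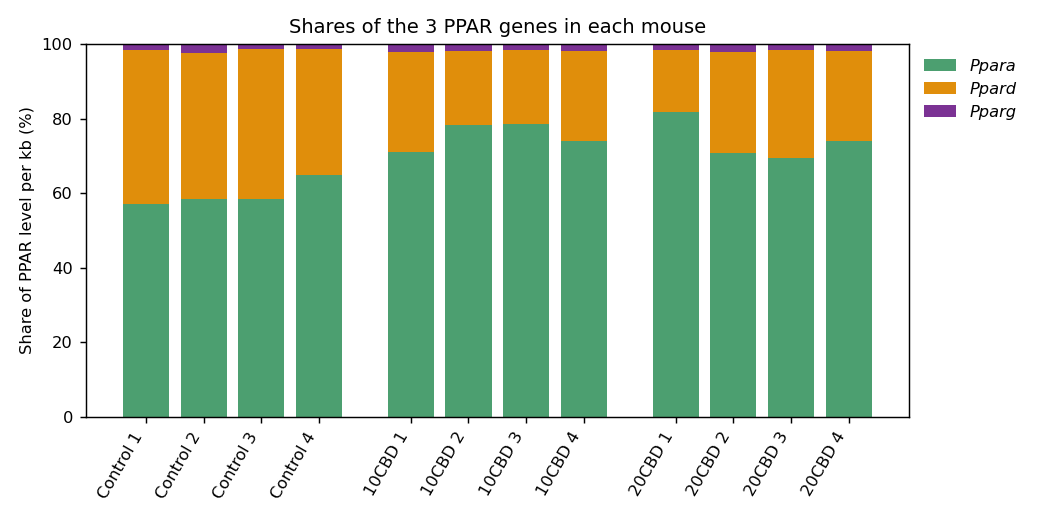
Share of Ppara, Ppard and Pparg in the sum of their levels per kilobase (percent), for each of the 12 mice by group. Ppard holds 33.7% to 41.1% in the Control mice and at most 29.2% in a treated mouse, and Pparg holds only a few percent in any mouse.

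Rxra encodes the main RXR of liver and kidney, the common partner of PPARs and of the retinoic acid, vitamin D, thyroid hormone, oxysterol and bile acid receptors. It lies on chromosome 2 at 27566452 to 27653330 (plus strand, ENSMUSG00000015846). Its level was 114, 115, 116 and 112 CPM in Control, 107, 98.5, 124 and 99.2 CPM in 10CBD, and 113, 118, 119 and 109 CPM in 20CBD. The Control mice lay within a narrow range, and 10CBD held both the highest and the lowest mouse. Rxra had a log2 fold change of -0.10 (SE 0.10, interval -0.32 to 0.13, edgeR adjusted p = 0.930) for 10CBD and 0.0053 (SE 0.10, interval -0.22 to 0.23, adjusted p = 0.997) for 20CBD. Its intervals were the narrowest of the 6 tested genes.

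Rxrb, on chromosome 17 at 34250759 to 34257376 (plus strand, ENSMUSG00000039656), encodes a broadly expressed RXR. It had 31.8, 28.0, 26.8 and 24.3 CPM in Control, 30.4, 22.9, 41.1 and 27.2 CPM in 10CBD, and 21.03, 28.8, 31.1 and 28.4 CPM in 20CBD. The highest mouse, 10CBD 3, was 1 of the 4 with a low mitochondrial share, and the groups overlapped. Rxrb had a log2 fold change of 0.14 (SE 0.17, interval -0.23 to 0.50, edgeR adjusted p = 0.938) for 10CBD and -0.021 (SE 0.17, interval -0.39 to 0.35, adjusted p = 0.990) for 20CBD. Rxra made up 72.2% of the summed level per kilobase of both RXRs in Control, 69.2% in 10CBD and 72.6% in 20CBD. The third receptor of the family, Rxrg, had only 6 to 24 counts per library.

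Ppargc1a encodes PGC1α, the coactivator that promotes mitochondrial biogenesis and oxidative metabolism. It lies on chromosome 5 at 51611592 to 51725068 (minus strand, ENSMUSG00000029167), where the annotated gene Gm42614 overlaps it on the same strand. Its level was 69.4, 61.5, 67.8 and 90.8 CPM in Control, 55.7, 89.4, 56.9 and 88.8 CPM in 10CBD, and 81.1, 69.7, 51.6 and 79.0 CPM in 20CBD. Low and high mice occurred in every group, and the groups overlapped. Ppargc1a had a log2 fold change of 0.0054 (SE 0.19, interval -0.40 to 0.41, edgeR adjusted p = 0.997) for 10CBD and -0.040 (SE 0.19, interval -0.45 to 0.37, adjusted p = 0.981) for 20CBD.

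Ppargc1a was lower in the libraries with the lowest mitochondrial shares. The 4 libraries with a share under 10% had 51.6 to 61.5 CPM, and the other 8 had 67.8 to 90.8 CPM, without overlap. Among those 8 it did not follow the share, as 20CBD 2 had the highest share (23.4%) with 69.7 CPM and Control 4 had 13.5% with 90.8 CPM. No other gene of the group was split in this way. Rxrb had 28.0 to 41.1 CPM in those 4 libraries and 21.03 to 31.8 CPM in the other 8. The part of the mitochondrial share in these levels was not tested.

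Ppargc1b, on chromosome 18 at 61431195 to 61533735 (minus strand, ENSMUSG00000033871), encodes PGC1β, a related coactivator of mitochondrial and lipogenic genes. Its level was 22.1, 23.8, 27.1 and 28.9 CPM in Control, 27.4, 33.3, 34.6 and 26.9 CPM in 10CBD, and 25.5, 27.7, 33.3 and 27.2 CPM in 20CBD. The 10CBD mice reached higher than the Control mice, but the groups overlapped. Its log2 fold change was 0.26 (SE 0.13, interval -0.024 to 0.55, unadjusted p = 0.0693, edgeR adjusted p = 0.871) for 10CBD and 0.16 (SE 0.13, interval -0.13 to 0.45, adjusted p = 0.816) for 20CBD. Ppargc1a made up 69.8 ± 2.58% of the summed PGC1 level per kilobase in Control, 65.4 ± 6.88% in 10CBD and 66.5 ± 7.34% in 20CBD.

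**Figure D4:**
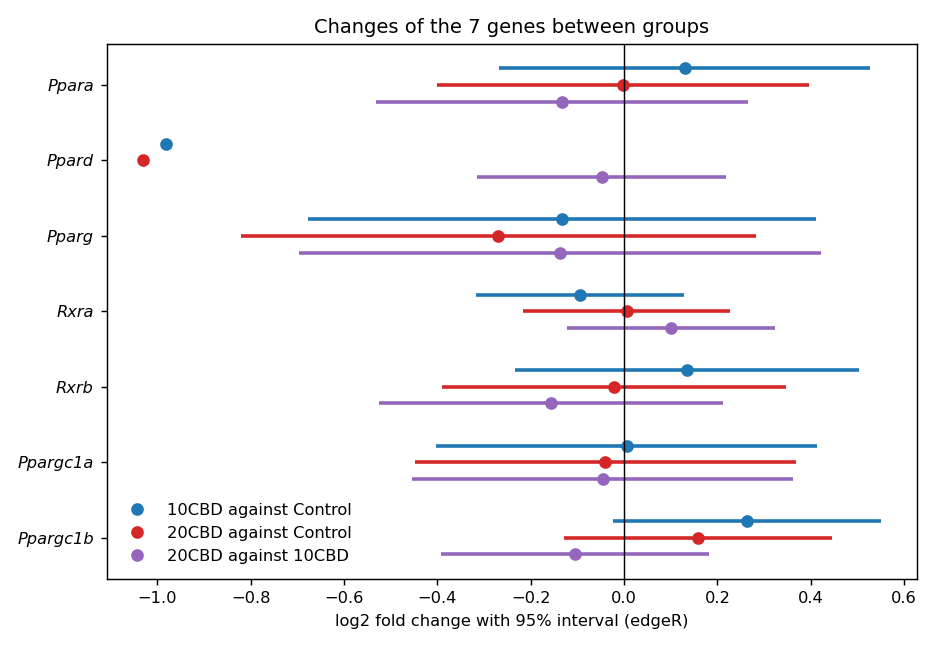
Log2 fold change of the 7 genes for 10CBD against Control, 20CBD against Control and 20CBD against 10CBD, with 95% intervals of the edgeR fit except for Ppard against Control, which is a description. The intervals of the other 6 genes include 0 in every comparison, as does that of Ppard between the doses.

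Between the doses, the log2 difference of 20CBD from 10CBD ran from -0.16 (Rxrb, interval -0.53 to 0.21) to 0.10 (Rxra, interval -0.12 to 0.32) over the 6 genes, and the smallest edgeR adjusted p was 0.910 (Rxra). Exact permutation tests of the 6 genes against Control gave a lowest p of 0.143 (Ppargc1b, 10CBD), where 0.0286 is the smallest p that 4 mice against 4 can give. Among the 7 genes, only Ppard had groups that did not overlap, with treated mice lower at both doses, and 1.64% of all genes tested had such lower groups for 10CBD and 2.63% for 20CBD. No group of mice was separated for 20CBD against 10CBD, where 3.1% of all genes were.

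Within the groups, levels of the 7 genes were compared over the 12 mice after removal of group means, for all 21 pairs. No pair had an adjusted p under 0.1. The pairs with the smallest p were Rxra with Ppargc1a (Pearson's r = -0.735, exact permutation p = 0.0114, adjusted p = 0.227, Spearman's rho = -0.804, exact permutation p = 0.00550, adjusted p = 0.115) and Rxrb with Ppargc1a (r = -0.738, exact permutation p = 0.0221, adjusted p = 0.227, rho = -0.699, exact permutation p = 0.0253, adjusted p = 0.207). Rxra and Rxrb had r = 0.767 (exact permutation p = 0.0325, adjusted p = 0.227) and rho = 0.699 (exact permutation p = 0.0295, adjusted p = 0.207). Without the 2 mice farthest from the median of the first gene, r was -0.759, -0.649 and 0.403, so the last was weaker without those mice. Leaving out single mice gave r of -0.866 to -0.674, -0.794 to -0.672 and 0.495 to 0.860. In the 8 libraries with a mitochondrial share of 10% or more, r was -0.671, -0.603 and 0.136 for the same pairs. Other pairs had larger r in these 8, namely Ppard with Rxra (0.945) and Ppara with Rxrb (-0.940). Over all 12 libraries these 2 pairs had r of 0.222 and -0.501. Only 2 of the 8 libraries were from 10CBD, and r among the 8 was not tested.

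Other genes were ranked by how closely their log2 CPM followed that of Ppard over the 12 libraries, which includes the difference between groups. Of 17162 genes, Bmal1 (r = 0.931), which encodes a core activator of the circadian clock, Npas2 (r = 0.923), which encodes a DNA-binding partner of BMAL1, Net1 (r = 0.921), Ypel2 (r = 0.919) and Ppm1h (r = 0.915) were the most similar. Bmal1 had means of 21.96, 10.8 and 9.53 CPM and Npas2 of 24.4, 9.13 and 8.97 CPM in Control, 10CBD and 20CBD. Net1, which encodes an exchange factor of RhoA, had a smaller difference with means of 309, 250 and 250 CPM.

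The most opposite patterns were those of Dbp (r = -0.944), Per3 (r = -0.922), Enkur (r = -0.920), Gm55632 (r = -0.904) and Tle3 (r = -0.903). Dbp, a transcription factor that binds the D-box, had means of 2.36, 15.7 and 24.0 CPM, and Per3, a period gene, 10.2, 21.5 and 26.7 CPM. Tle3, a transcriptional corepressor, had 67.1, 85.8 and 89.7 CPM. Enkur was low, with means of 0.561, 1.02 and 1.07 CPM. These r values describe the ranking over the same 12 libraries in which Ppard was chosen and carry no test. After removal of group means, a different set led the ranking, with Mmp15 (r = 0.955), Il2rb (0.939) and Clec12a (0.928) at one end and Copb2 (-0.938), Mturn (-0.914) and Pam (-0.878) at the other. Mmp15, Il2rb and Clec12a had low levels, with group means between 1.11 and 3.01 CPM. This second ranking also carries no test, and its named genes are the ends of 17162 r values.

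**Figure D5:**
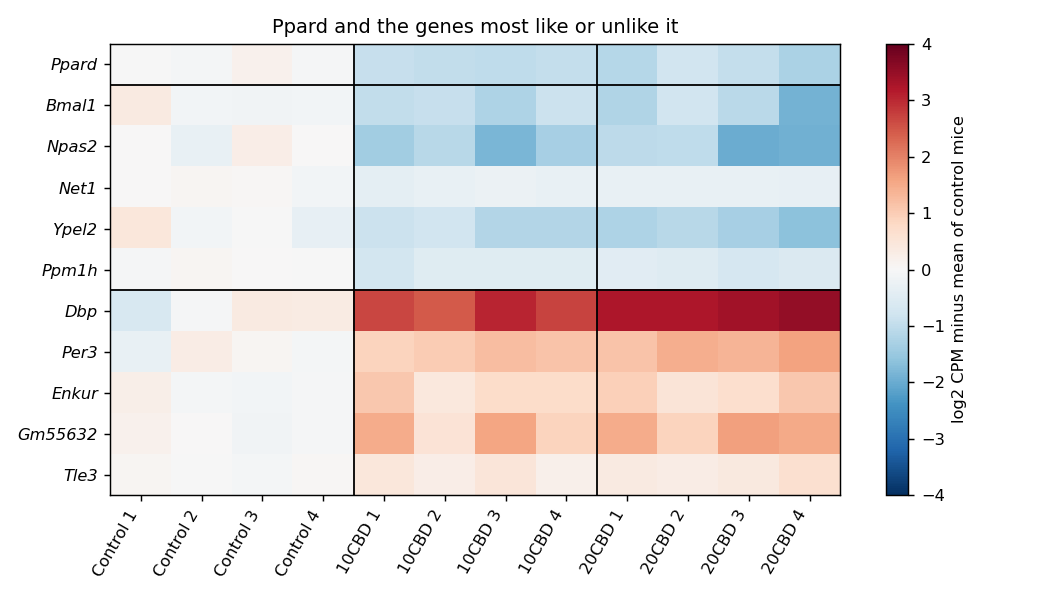
Colour map of log2 CPM minus the mean of the Control mice, with 1 column for each of the 12 mice and rows for Ppard, the 5 genes with the highest and the 5 with the lowest Pearson's r with it. Genes such as Bmal1 (r = 0.931) follow Ppard between the Control and treated mice, and genes such as Dbp (r = -0.944) run the opposite way.

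The words searched before the 7 genes were also searched in the promoters of this ranking. The E-box and D-box stretches that were found are shown with the word in capitals. Gm55632 was not searched because it is not protein coding. The E-box lay 24 to 19 bases before the start of Net1 (chr13:3943585-3943614, minus strand) and 12 to 7 bases before that of Tle3 (chr9:61279568-61279591, plus strand). The D-box lay at 2 places before Per3 (chr4:151129308-151129339 and chr4:151129261-151129292, minus strand).
Net1 E-box: gttatcgggagtCACGTGggtcctggcccc
Tle3 E-box: gtcccgtggcccCACGTGggagcc
Per3 distal D-box: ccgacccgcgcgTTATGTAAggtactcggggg
Per3 proximal D-box: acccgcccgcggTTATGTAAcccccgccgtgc
AGGTCA was found once each before Ppm1h and Dbp, and none of the words was found before Bmal1, Npas2, Ypel2 or Enkur. Of all promoters searched, 7.61% held the E-box, 0.567% the D-box and 11.9% AGGTCA. These matches are descriptions of 250 bases and do not show binding. Whether these few promoters differ from those of the 7 genes or from all promoters was not tested.

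The wider pathway was followed in 93 genes of 6 lists, of which 89 were tested and Nr1i3, Crabp2, Ptgs2 and Alox15 did not pass the filter. None was called in any comparison by the edgeR fit used throughout. With the mitochondrial share as a covariate, edgeR called 12 of them for 20CBD against Control, among 1386 of all genes, and these included Pdk4, Ucp2, Fabp4, Acsl1, Gps2 and Nrip1. At an unadjusted p under 0.05 there were 5 of the 89 (2 higher, 3 lower) for 10CBD against Control, 9 (5 higher, 4 lower) for 20CBD against Control and 4 (2 higher, 2 lower) for 20CBD against 10CBD, beside 5.67%, 8.45% and 6.31% of all genes tested. The 5 genes were Nr1h4, Smarcd3, Pdk4, Fabp4 and Acsl1, and the 4 between the doses were Pprc1, Cd36, Ucp2 and Pnpla2. Groups did not overlap for 3, 2 and 3 of the 89 genes, or 3.37%, 2.25% and 3.37%, where 3.19%, 5.3% and 3.1% of all genes did so. These were Nr1h4, Kat2a and Smarcd3 for 10CBD, Kat2a and Prmt1 for 20CBD, and Pprc1, Ucp2 and Pex11a between the doses, and Prmt1, Pprc1, Pex11a, Cd36 and Pnpla2 are named after their values were seen.

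The 30 target genes of PPARs include genes for enzymes, transporters and lipid droplet proteins of fatty acid use. Their median log2 fold change was -0.067 for 10CBD against Control, with 9 above and 21 below 0. For 20CBD it was 0.13, with 20 above and 10 below 0. The medians of all genes were 0.012 and 0.015 in these comparisons. The smallest edgeR adjusted p of a target gene was 0.812 and 0.419.

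The 2 target genes with the smallest unadjusted p against Control were Ucp2 and Pdk4. Pdk4, a kinase that shuts glucose carbon out of the mitochondrial citrate cycle, had 240, 101, 121 and 76.8 CPM in Control, 41.9, 102, 51.4 and 76.2 CPM in 10CBD, and 60.9, 112, 58.2 and 45.8 CPM in 20CBD. Control 1 was far above the other mice, and the groups overlapped. Its log2 fold change was -0.99 (edgeR adjusted p = 0.812) for 10CBD and -0.96 (adjusted p = 0.474) for 20CBD. Ucp2, a mitochondrial carrier, had 91.0 ± 27.3 CPM in Control, 74.2 ± 10.6 CPM in 10CBD and 142 ± 42.1 CPM in 20CBD. All 20CBD mice lay above all 10CBD mice in Ucp2, with a log2 difference of 0.94 (unadjusted p = 6.87e-04, edgeR adjusted p = 0.758).

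Among the 10 tested genes of fatty acid ligand supply, Fabp4 and Acsl1 had the smallest unadjusted p. Fabp4, a fatty acid carrier of fat and endothelial cells, had 149 ± 40.9 CPM in Control, 88.9 ± 17.9 CPM in 10CBD and 89.2 ± 16.9 CPM in 20CBD, with edgeR adjusted p values of 0.775 and 0.312. The adipocyte sum was also higher in Control than in 20CBD on average, at 64.1 ± 40.8 and 7.16 ± 8.78 CPM. In 10CBD it was 20.2 ± 17.1 CPM, and the part of fat tissue in the Fabp4 values was not tested. Acsl1, which activates long-chain fatty acids, had 473 ± 89.2, 342 ± 40.8 and 361 ± 73.1 CPM in Control, 10CBD and 20CBD.

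Among the 11 tested partners of RXR, Nr1h4, the bile acid receptor, had 103 ± 12.6 CPM in Control, 129 ± 9.64 CPM in 10CBD and 123 ± 22.8 CPM in 20CBD. Its 10CBD mice lay above all Control mice (edgeR adjusted p = 0.830). Rarg, a retinoic acid receptor, had 15.0 ± 1.66, 16.8 ± 0.74 and 18.5 ± 4.07 CPM.

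Of the 17 PGC1 partners and regulators, Kat2a, the acetyltransferase GCN5 that restrains PGC1α, had 19.5 ± 0.90 CPM in Control, 17.0 ± 0.88 CPM in 10CBD and 16.8 ± 0.98 CPM in 20CBD. Its treated mice lay below all Control mice at both doses, with edgeR adjusted p values of 0.872 and 0.628. Fnip1, a partner of folliculin, had means of 67.9, 83.3 and 73.1 CPM.

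Of the 12 coactivators, Smarcd3, a subunit of the SWI/SNF complex, had 4.15 ± 0.37 CPM in Control, 5.69 ± 0.71 CPM in 10CBD and 4.75 ± 0.92 CPM in 20CBD. The 10CBD mice lay above the Control mice (edgeR adjusted p = 0.812). Lpin1, a phosphatidate phosphatase that also acts with PGC1α, had 100.2 ± 20.3, 117 ± 8.76 and 128 ± 17.9 CPM. Of the 9 corepressors, Gps2, a subunit of the NCoR complex, had 49.9 ± 4.58, 55.6 ± 9.36 and 64.0 ± 8.92 CPM. Nrip1, which encodes RIP140, had 37.9 ± 4.69, 34.2 ± 4.47 and 29.9 ± 4.92 CPM. The smallest edgeR adjusted p of a corepressor was 0.893 for 10CBD and 0.501 for 20CBD.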

How the data were processed

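The deposited files hold whole counts per Ensembl gene for each library, without normalization. The authors trimmed reads with Flexbar 3.5.0, mapped them with STAR 2.7.5c (genome build GRCm39) and counted them by htseq-count of HTSeq 1.99.2. The version of the gene annotation, whether strand and molecular identifiers were used in counting, and the hour of killing are not given in the sources used here. Reads outside genes (12.1% to 19.9%) or on overlapping genes (4.72% to 5.29%) were left out.

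The 7 genes and all lists were chosen with earlier results of these data known. Identifiers were matched to GENCODE vM39 (99.0% of identifiers, 99.95% of counts). Genes kept by filterByExpr were fitted with edgeR 4.0.16 in R 4.3.3 (TMM, quasi-likelihood test, 1 mean per group, all 12 libraries). CPM used TMM sizes, and log2 CPM a prior count of 2. Benjamini-Hochberg adjustment was made over the 17163 genes tested. Single genes were compared by exact two-sided permutation tests of mean log2 CPM over 70 arrangements, and pairs of genes over all 13824 arrangements of mice within groups, in place of the random draws first planned. In 1 simulated data set, 200 genes were changed by a factor of 2, up or down, between 20CBD and Control. There, edgeR recovered 67% of these, with 13 unchanged genes called among 16813 tested. Smaller changes were not simulated.

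Besides the 7 genes, the text names any gene of the lists that was called, in each list the 2 genes with the smallest unadjusted p against Control at either dose, and the genes with the 5 highest and 5 lowest r with Ppard (3 each after removal of group means). The neighbours of Ppard, the other genes named with alternative settings and Rxrg were added after their values were seen. So were the proximal tubule markers Kap, Lrp2 and Slc5a2. Alternatives were RLE normalization, DESeq2 1.42.0, no filter on low counts, limma-voom (limma 3.58.1), only the groups compared, a replicate block, the mitochondrial share as a covariate, leaving out each library and, added after seeing the data, leaving out the 4 libraries of low mitochondrial share. The last of these removed 2 mice of 10CBD and 1 each of Control and 20CBD.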

Additional observations from a re-analysis of the deposited data

Results flagged for a closer look

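Pparg in the control group held 1 mouse far from the others: Control 2 had 2.05 CPM, and the other 3 had 1.41 to 1.43 CPM, a gap of 0.973 of the whole range, where the limit of Dixon's test for 4 values is 0.829. This was 1 of 21 groups examined, and chance alone would mark about 1 in 20. The mouse had 43 Pparg counts, the highest adipocyte sum of the 12 mice (103 CPM) and a mitochondrial share of 5.77%, and the part of these in the Pparg value was not tested.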

How the results depend on the processing

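Ppard against Control was not tested, and none of the other 6 genes was called in any comparison under any of the 20 alternatives. Of the 89 pathway genes, 0 were called for 10CBD against Control, 20CBD against Control and between the doses. Without the filter on low counts there were 2 (Pdk4 and Fabp4), 5 (Ucp2 among them) and 3 (Ucp2 among them), with 331, 416 and 256 calls among all genes. DESeq2 called 1 for 20CBD (Fabp4, log2 fold change -0.76) and 1 between the doses (Ucp2, 0.93). For 20CBD, the mitochondrial covariate gave 12 (1386 of all genes), removal of the 4 libraries of low mitochondrial share gave 1 (Fabp3), and leaving out single libraries gave 0 to 1 (Fabp4 without Control 3). The cause of these differences was not tested.

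Signs of log2 fold changes near 0 turned. Without the 4 libraries of low mitochondrial share, those for 10CBD were 0.072 (Pparg) and -0.14 (Rxrb), those for 20CBD 0.053 (Ppara), 0.025 (Pparg), -0.0059 (Rxra) and 0.014 (Ppargc1a), and between the doses 0.061 (Rxrb). Ppargc1a for 10CBD was -0.0012 with DESeq2, -0.017 with limma-voom, -0.019 without the filter and -0.010 with the replicate block. Rxra for 20CBD was -0.0041 with DESeq2 and -0.0089 without the filter, and Rxrb was 0.053 with the mitochondrial covariate. Leaving out single libraries gave for 10CBD -0.18 to 0.018 (Pparg), -0.046 to 0.24 (Rxrb) and -0.11 to 0.13 (Ppargc1a), for 20CBD -0.22 to 0.099 (Ppara), -0.014 to 0.027 (Rxra), -0.090 to 0.083 (Rxrb) and -0.12 to 0.086 (Ppargc1a), and between the doses -0.15 to 0.029 (Ppard), -0.28 to 0.0043 (Pparg), -0.27 to 0.024 (Rxrb) and -0.15 to 0.077 (Ppargc1a).

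Replicate numbers did not pair the mice: r between same-numbered mice was -0.330 to 0.317, over 0.1 in 4 of 12 pairs, and 3 of 12 libraries were closest to one of their own number. With the replicate block, 4, 27 and 0 of all genes were called against 5, 52 and 0, and again none of the 6 genes. PPAR shares without division by length were 41.6%, 25.1% and 26.6% for Ppard. At 15 to 43 counts, changes of Pparg smaller than its intervals could not be seen at this depth.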
